A study of Mus musculus with 15 samples.

Results

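Potassium channels let potassium ions leave or enter the cell along their electrochemical gradient, and in neurons they set the resting potential, end the action potential and hold firing rates in check. Each channel is built from pore-forming subunits, and many carry auxiliary subunits that change how they open or where in the cell they sit. In mice nearly all of these subunits have symbols that start with Kcn. Pores are formed by the voltage-gated Kv families, which are Kcna to Kcnd, Kcnq, Kcnh and the silent subunits Kcnf, Kcng, Kcns and Kcnv. The silent subunits work only in partnership with other subunits. The inward rectifiers (Kir, Kcnj) and the two-pore-domain leak channels (K2P, Kcnk) form pores too. So do the channels opened by calcium or sodium (Kcnma, Kcnn and Kcnt), with which Kcnu is grouped here. The Kcnab, Kcnip, Kcne and Kcnmb genes encode auxiliary subunits.

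All genes whose symbol starts with Kcn were taken from the table of transcript levels, 95 of the 23235 genes listed. Of these, 77 encode pore-forming subunits and 16 auxiliary subunits, and the remaining members are *Kcnq1ot1*, a long non-coding RNA, and *Kcnrg*, which encodes a channel regulator. RNA-seq was done on total RNA of adult brain cortex from 4 groups of mice. WT C57BL/6J mice were killed at Zeitgeber time (Zt) +6, in the light, or at Zt +16, in the dark, with 3 mice at the first time and 2 at the second. Mice of the line B6(Cg)-Snord116tm1.1Uta/J (*Snord116del* +/-) were killed at the same times, 2 at each, and carry on the paternal chromosome a deletion of the *Snord116* snoRNA cluster of the imprinted Prader-Willi domain. The deletion is in every cell of the animal, and the cortex was taken whole. The table gives 1 FPKM value (fragments counted on a transcript, scaled to its length and to the size of the library) per gene and group, so no spread between mice can be seen, no test was possible and each difference below has no replicate check. The number of reads behind a value is not in the table.

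In the table, *Snord116* itself is listed at 0 FPKM in every group, so it cannot check the genotype labels. At Zt +6, *Ipw*, a paternally expressed non-coding transcript of the same domain, had 21.6 FPKM in WT and 3.40 FPKM in *Snord116del*; the Zt +16 groups had 3.17 and 1.82 FPKM. Among markers of the tissue, the cortical projection neuron list (4 of 4 genes measured) had a summed level between 82.6 and 178 FPKM over the groups, and the cerebellar markers stayed between 0.263 and 0.741 FPKM in sum. At Zt +6 the median level of all genes kept for comparison (those averaging 1 FPKM or more over the 4 groups) was 3.17 FPKM for WT and 5.63 FPKM for *Snord116del*, and at Zt +16 it was 2.90 and 4.00 FPKM, so that most genes were listed higher in *Snord116del*, at Zt +6 above all. Differences are log2 ratios of FPKM + 1, which understate the change of low genes. Among the genes kept, one counted as higher or lower where FPKM + 1 differed 1.5-fold or more and the larger FPKM reached 1.

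The pore-forming members share a short stretch that lines the selectivity filter, the narrowest part of the pore, where backbone oxygens of the protein replace the water around a potassium ion. Coding sequences of GENCODE (NCBIM37, which is the mm9 assembly) were searched for 5 residues in a row, serine or threonine, valine or isoleucine, glycine, then tyrosine, phenylalanine or leucine, and glycine. Of the 94 members with a coding sequence, 58 held 1 match, 12 held 2 and 24 held none. The 12 were all K2P members, and the K2P members with a single match were *Kcnk1* and *Kcnk7*. All 16 auxiliary subunits and *Kcnrg* held none. The other 7 without a match were the 4 Kv3 and the 3 Kv4 members, and each of these held 1 match once leucine was also allowed at the second position, an alternative added after the first result was seen. The codons of this stretch are shown in capitals, with 12 bases of coding sequence on either side, for 4 members described below, each from a different family, each read 5′ to 3′ on the coding strand.
Kcna2 (Kv1): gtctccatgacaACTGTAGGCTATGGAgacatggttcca
Kcnh5 (EAG): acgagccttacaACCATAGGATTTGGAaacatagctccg
Kcnma1 (BK): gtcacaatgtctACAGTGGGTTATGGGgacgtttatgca
Kcnk2 (K2P, second pore domain): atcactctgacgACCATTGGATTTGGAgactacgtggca
In NCBIM37 these lie at chr3:106908130-106908168 (+), chr12:76188441-76188479 (-), chr14:24347623-24347661 (-) and chr1:191080448-191080486 (-), in the order shown, each within a single coding exon. The letters code for TVGYG in *Kcna2* and *Kcnma1* and for TIGFG in *Kcnh5* and *Kcnk2*.

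Of the 95 members, 55 averaged 1 FPKM or more over the groups and 40 did not, and 21 stayed under 0.5 FPKM in every group. The members just inside this limit were *Kcnj12*, *Kcnj13* and *Kcnn1*, with means of 1.00, 1.05 and 1.10 FPKM, and those just outside were *Kcns3*, *Kcnk13* and *Kcns2*, with 0.997, 0.973 and 0.963 FPKM. FPKM is scaled to transcript length, so levels are set side by side between genes here, as a rough order only. Differences between the groups varied with transcript length (described below), and this enters the means. The member with the highest mean was *Kcnmb4*, a neuronal auxiliary subunit of the large-conductance calcium-activated (BK) channel, listed at Zt +6 with 36.8 FPKM (WT) and 21.3 FPKM (*Snord116del*) and at Zt +16 with 51.3 and 74.8 FPKM. Next came the leak channel gene *Kcnk1*, with 22.4 and 29.9 FPKM at Zt +6 and 30.5 and 49.8 at Zt +16.

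**Figure D1:**
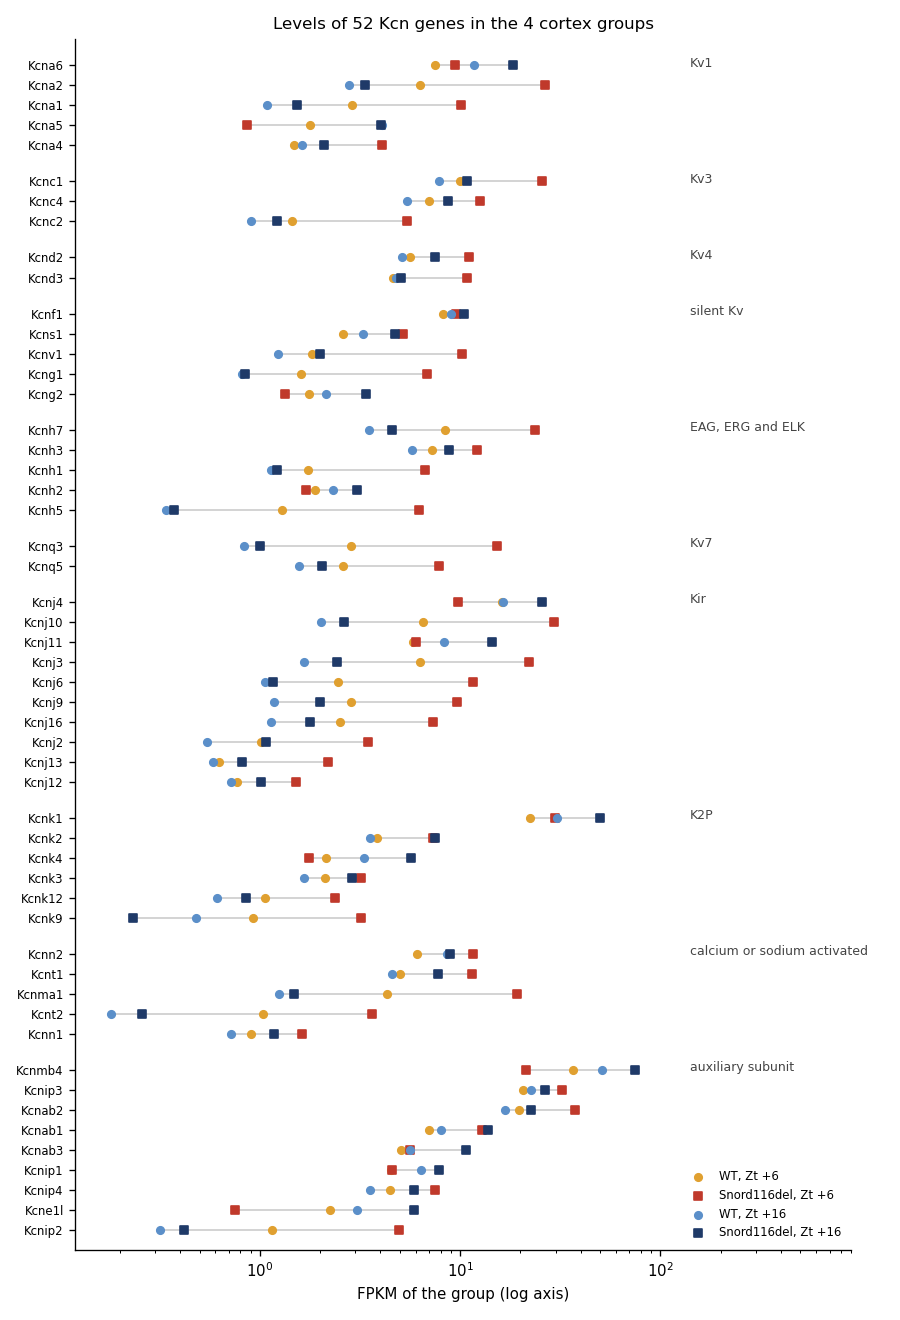
FPKM on a log axis of 52 of the 55 Kcn genes that averaged 1 FPKM or more, by family and in order of their mean, with 1 point per group (circles for WT, squares for *Snord116del*; 1 value per group, no error). The red squares of *Snord116del* at Zt +6 are the highest of the 4 points for 37 of the 52 genes, and the dark blue squares of *Snord116del* at Zt +16 for 14.

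Among the remaining auxiliary subunits, *Kcnip3*, a calcium-binding partner of Kv4 channels, had between 20.6 and 32.5 FPKM, and *Kcnab2*, the beta subunit of Kv1 channels, between 16.7 and 37.7 FPKM. Within Kv1, the delayed rectifier family of axons, *Kcna6* and *Kcna2* were highest by their means, of 11.8 and 9.74 FPKM. *Kcnc1*, a Kv3 gene of fast-spiking neurons, led its family with a mean of 13.6 FPKM, and *Kcnd2* and *Kcnd3*, which carry the A-type current of dendrites, had means of 7.31 and 6.32 FPKM. The silent subunit gene *Kcnf1* had the smallest ratio of its highest to its lowest group among members with a mean over 5 FPKM, between 8.25 and 10.5 FPKM over the 4 groups. In the calcium- or sodium-activated family *Kcnn2* (SK) and *Kcnt1* (Slack) led with means of 8.80 and 7.19 FPKM. *Kcnq1*, a Kv7 gene, lay between 0.126 and 0.173 FPKM and *Kcnj1*, an inward rectifier of the kidney, between 0.0329 and 0.152 FPKM. *Kcnq1ot1*, the imprinted antisense RNA of the *Kcnq1* locus, had 0.294 FPKM (WT) and 1.00 FPKM (*Snord116del*) at Zt +6, against 0.0875 and 0.102 FPKM at Zt +16. *Kcnrg* had between 0.274 and 0.716 FPKM.

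The comparison of *Snord116del* with WT at Zt +6 asks whether loss of the paternal *Snord116* locus changes transcript levels in the light. Most of the potassium channel genes were listed higher in *Snord116del*: 39 of the 55 (70.9%) were higher by the rule, 3 were lower and 13 were neither. Over all 10297 genes kept, 49.3% were higher and 7.62% lower, so the share of higher members lies above a background that itself lies mostly on the higher side. The median log2 difference was 0.98 over the 55 members and 0.57 over all genes kept. Without the filter on low values it was 0.51 over all 95 members. Of the 55, 9 reached a mean of 1 FPKM only through the *Snord116del* Zt +6 group, and 7 of these 9 count among the higher ones, which their selection favours. They are *Kcnh5*, *Kcnip2*, *Kcnj2*, *Kcnj12*, *Kcnj13*, *Kcnk9*, *Kcnk12*, *Kcnn1* and *Kcnt2*. Because the cortex was measured in bulk, a change in the number of cells of a type and a change in RNA per cell cannot be told apart here.

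The scale of the groups bears on these counts. With every group set to the same total FPKM, 39 members were higher and 4 lower at Zt +6. Setting every group to the same median lowered the median difference of all genes at Zt +6 by 0.63, and 21 members then counted as higher and 9 as lower, against 14.8% and 24.2% of all genes. On that scale the median member difference was 0.31 and that of all genes -0.06, and 38 of the 55 members lay above 0. Of the 39 higher members, 21 stayed past the rule with equal medians, 15 with the trend on transcript length removed (described below) and 14 under both steps; the 3 lower ones stayed past it under both.

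**Figure D2:**
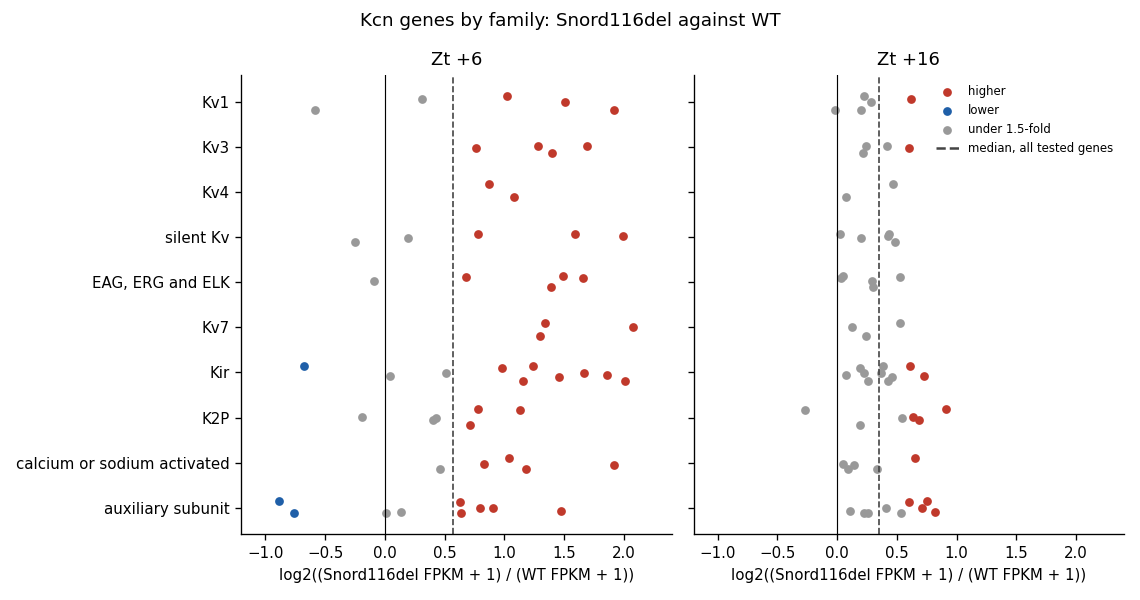
Log2 ratio of FPKM + 1 in *Snord116del* against WT for 54 of the 55 Kcn genes, by family, at Zt +6 (left) and Zt +16 (right). Each point is a gene (vertical jitter has no meaning), red or blue where it was at least 1.5-fold higher or lower; the dashed line is the median of all 10297 genes, 0.57 at Zt +6 and 0.35 at Zt +16.

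By role, 34 of the 46 measured pore-forming genes were higher and 1 was lower at Zt +6, with a median log2 difference of 1.11, and 5 of the 9 auxiliary subunits were higher and 2 lower, with a median of 0.63. Every measured member of Kv3 (4 of 4), Kv4 (2 of 2) and Kv7 (3 of 3) was higher. On the scale of equal medians the medians of these families were between 0.24 and 0.64, and 2 Kv3, 0 Kv4 and 2 Kv7 genes still counted as higher. With the length trend removed 1 Kv3, 0 Kv4 and 1 Kv7 gene did, and *Kcnd2* and *Kcnd3* lay at -0.12 and -0.08. The medians of the K2P genes and of the auxiliary subunits, 0.57 and 0.63 as deposited, became -0.05 and -0.17 with equal medians.

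The largest difference on the scale of log2 FPKM + 1 was that of *Kcnq3*, a pore subunit of the M-channel, which damps repetitive firing. With a pseudocount of 0.1 it had 2.38 and the silent subunit gene *Kcnv1* 2.43. At Zt +6 it had 2.84 FPKM in WT and 15.2 FPKM in *Snord116del*, a log2 difference of 2.08, and 0.834 and 0.997 FPKM at Zt +16. *Kcnq5*, of the same family, had 2.60 and 7.83 FPKM at Zt +6, a log2 difference of 1.30 that became 0.15 with the length trend removed. The *Snord116del* Zt +6 value stood above the other 3 groups for both.

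Among the voltage-gated Kv1 and Kv3 genes, *Kcna2* had 6.28 FPKM in WT and 26.6 in *Snord116del*, a log2 difference of 1.92. *Kcna1*, its partner in juxtaparanodal axon channels, had 2.89 and 10.1 FPKM (1.51, or 0.21 with the length trend removed, which is under the rule). Of the Kv3 genes, *Kcnc2* had 1.44 and 5.45 FPKM, and *Kcnc1* and *Kcnc4* differed by 1.28 and 0.76. The last pair fell under the rule with equal medians, at 0.50 and 0.01, and with the length trend removed, at 0.08 and 0.22, and *Kcnc2* did so with the length trend removed, at 0.30. The interneuron markers did not move as a list beside them: *Gad1* and *Gad2* were higher (1.28 and 1.36), while *Pvalb*, the marker of the fast-spiking interneurons in which Kv3 channels are best known, was lower (29.8 and 18.8 FPKM, -0.64), as was *Sst* (-0.59).

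Not every Kv1 gene was higher. *Kcna5* had 1.79 FPKM in WT and 0.862 FPKM in *Snord116del*, a log2 difference of -0.58 that just missed the rule, and *Kcna6* had 7.46 and 9.47 FPKM (0.31). Among the silent subunits, *Kcnv1* had 1.82 and 10.2 FPKM (1.99) and *Kcng1* 1.60 and 6.81 FPKM (1.59), whereas *Kcnf1* differed by 0.19. In the EAG, ERG and ELK family, *Kcnh7* had 8.39 and 23.6 FPKM (1.39, or 0.06 with the length trend removed). *Kcnh5* had 1.29 and 6.22 FPKM (1.66), but averaged 0.666 FPKM over the other 3 groups and was kept only through the *Snord116del* Zt +6 value. *Kcnh2*, the ERG gene of cardiac repolarisation, had 1.88 and 1.71 FPKM (-0.09). *Kcnh3* was higher by 0.68 as deposited and lower by 0.07 on the scale of equal medians.

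The inward rectifiers held some of the largest differences in both directions. *Kcnj10*, the Kir4.1 channel through which astrocytes take up potassium, had 6.54 FPKM in WT and 29.4 FPKM in *Snord116del*, a log2 difference of 2.01. *Kcnj16*, its partner, had 2.50 and 7.29 FPKM (1.24, or 0.56 with equal medians and 0.57 with the length trend removed, both just under the rule). The astrocyte markers moved with them, with all 4 of the list higher at Zt +6 and a summed level of 30.01 FPKM in WT and 90.1 in *Snord116del*, and 13.5 and 17.3 at Zt +16. Over all marker lists 22 of the 32 genes kept were higher at Zt +6, endothelium (3 of 3) and striatum (3 of 3) among them, against 49.3% of all genes. With equal medians 2 of the 4 astrocyte markers were higher, and *Gfap* and *Aldh1l1* lay at 0.05 and 0.13. The part of astrocytes in the *Kcnj10* difference was not tested.

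The genes of the G protein-gated Kir3 channels, which are opened by receptors for inhibitory transmitters, were also higher. *Kcnj3* had 6.29 and 22.1 FPKM (1.67), *Kcnj6* 2.46 and 11.6 FPKM (1.86) and *Kcnj9* 2.87 and 9.65 FPKM (1.46), while *Kcnj5*, the subunit known from the heart, stayed between 0.135 and 0.246 FPKM in all groups. In contrast, *Kcnj4*, a strong inward rectifier of forebrain neurons, had 16.2 FPKM in WT and 9.72 FPKM in *Snord116del*, a log2 difference of -0.68. *Kcnj11*, the pore of the ATP-sensitive channel, had 5.83 and 6.04 FPKM (0.04). *Kcnj13*, a channel of epithelia such as choroid plexus, had 0.625 and 2.20 FPKM (0.98), and was likewise kept only through the second value, with a mean of 0.673 FPKM over the other 3 groups. The choroid plexus marker *Ttr* had 200 and 182 FPKM in the same groups.

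In the calcium- or sodium-activated family, *Kcnma1*, the pore of the BK channel, had 4.33 FPKM in WT and 19.2 FPKM in *Snord116del*, a log2 difference of 1.92. *Kcnmb4*, its neuronal partner, went the other way, with 36.8 and 21.3 FPKM (-0.76). The third gene lower at Zt +6 was *Kcne1l*, an auxiliary subunit of the Kcne type, with 2.24 and 0.752 FPKM (-0.89). *Kcne1l*, *Kcnmb4* and *Kcnj4* kept this direction on the scale of equal medians, at -1.29, -1.55 and -1.43. *Kcnip3* and *Kcnip4*, each higher by 0.63 as deposited, lay at -0.17 and -0.08 there. Of the K2P genes, *Kcnk2* (TREK-1) had 3.86 and 7.32 FPKM (0.78, or 0.08 with equal medians). *Kcnk9* had 0.920 and 3.22 FPKM (1.13) and was kept only through the *Snord116del* Zt +6 group, with a mean of 0.545 FPKM over the other 3.

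The members differ in transcript length, and length moved with the difference at Zt +6 over all genes. Over the 1967 genes whose longest annotated transcript had 5000 bases or more the median log2 difference was 1.14, over the 3315 between 3000 and 5000 bases it was 0.74, and over the 4883 shorter ones 0.16. For the Kcn genes the same classes gave 1.32 (16 genes), 0.87 (24 genes) and 0.51 (15 genes). Each class holds members that were kept only through the *Snord116del* Zt +6 group, whose selection favours a rise. In the shortest class these are *Kcnj12*, *Kcnj13*, *Kcnk9* and *Kcnk12*, and its median is the value of *Kcnj12* itself. These medians therefore cannot show whether the members lie above all genes of their class. The 39 higher members had a median longest transcript of 4089 bases and the 3 lower ones of 1626 bases. Spearman's rho between length and log2 difference was 0.49 over the 55 members and 0.63 over 10165 genes, as a description across genes that share their libraries. With the trend on length removed, 15 members were higher and 8 lower, against 12.5% and 13.7% of all genes, and the median member difference was 0.15. *Kcnq3*, with an annotated length of 2622 bases, had 1.64 after this step and *Kcnh7*, of 13321 bases, 0.06. The annotated lengths of *Kcnq3* and *Kcnk9* (1209 bases) are those of their coding sequences alone, of 873 and 402 codons and a stop. Untranslated ends are thus missing from both lengths, and the step may have removed too little for these genes. Both count among the 14 members that stayed higher under both steps. Why length moved with genotype at Zt +6 was not tested.

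**Figure D3:**
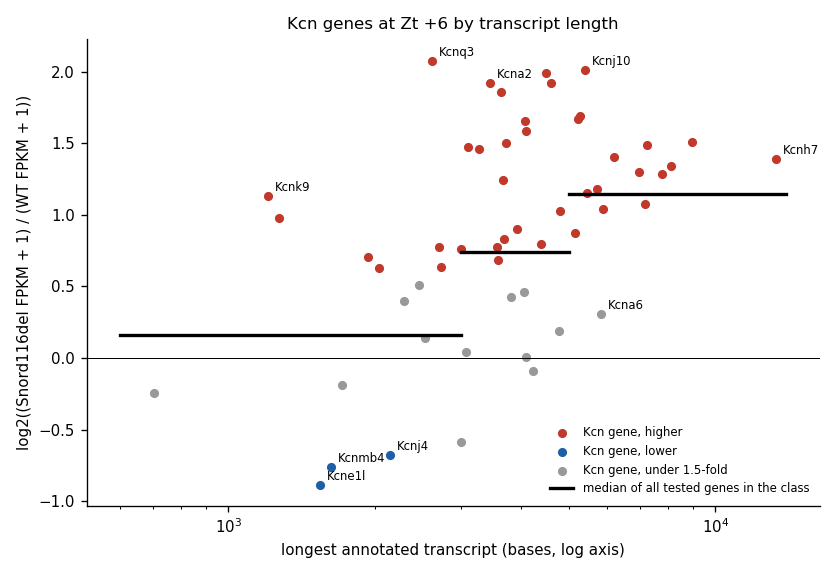
Log2 ratio of FPKM + 1 in *Snord116del* against WT at Zt +6 (y axis) against the longest annotated transcript in bases (x axis, log) for the 55 Kcn genes, coloured by the 1.5-fold rule. Black lines give the medians of all genes in 3 length classes, 0.16, 0.74 and 1.14; the 3 lower Kcn genes (blue) are all shorter than 3000 bases and the Kcn genes of 5000 bases or more have differences of 0.31 or more.

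At Zt +16, in the dark, the genotypes differed less. Of the 55 members 12 were higher in *Snord116del* (21.8%) and 0 lower, against 19.0% and 0.204% of all genes, and the median log2 difference was 0.34 over the members and 0.35 over all genes. This count rests on the scale of the groups: with equal medians, which lowered the median of all genes by 0.34, 0 members were higher and 0 lower. The largest differences were those of *Kcnk2*, with 3.54 FPKM in WT and 7.52 in *Snord116del* (0.91), and *Kcnab3*, a Kv1 beta subunit, with 5.63 and 10.7 FPKM (0.82). *Kcne1l* had 3.07 and 5.88 FPKM (0.76), *Kcnj11* 8.34 and 14.5 FPKM (0.73), *Kcnab1* 8.07 and 13.9 FPKM (0.71) and *Kcnk1* 30.5 and 49.8 FPKM (0.69). None of these 6 is among the 12 largest rises at Zt +6. Length ran the other way here than at Zt +6. Spearman's rho between length and log2 difference was -0.16 over the 55 members and -0.38 over 10165 genes. Over all genes the median difference was 0.45 for transcripts under 3000 bases, 0.32 between 3000 and 5000 bases and 0.23 for longer ones. The reason was not tested.

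Only 5 members were higher at both times, namely *Kcnab1*, *Kcnc4*, *Kcnip4*, *Kcnk2* and *Kcnt1*. With equal medians, and with the length trend removed, 0 of these 5 passed the rule at either time. *Kcnj4* and *Kcne1l* were lower in *Snord116del* at Zt +6 and higher at Zt +16. Their Zt +16 differences, 0.61 and 0.76, became 0.17 and 0.39 with equal medians and 0.20 and 0.28 with the length trend removed, under the rule in each case. A further 35 members passed the rule at Zt +6 and not at Zt +16, 5 at Zt +16 and not at Zt +6, and 8 at neither time. Of the 5 largest rises in the light, 4 had differences in the dark under the member median of 0.34, with *Kcnq3* at 0.12, *Kcnj10* at 0.26, *Kcna2* at 0.20 and *Kcnma1* at 0.14, and *Kcnv1* lay above it at 0.43. Whether the genotype difference itself changed with time could not be tested on 1 value per group.

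Within each genotype, Zt +16 was compared with Zt +6. In WT, 15 members were lower at Zt +16 and 1 was higher (27.3% and 1.82%), against 10.3% and 5.71% of all genes, and the median log2 difference was -0.27 over the members and -0.04 over all genes. With equal medians the counts were 15 and 3. The lower ones included 5 inward rectifiers, led by *Kcnj3*, which had 6.29 FPKM at Zt +6 and 1.65 FPKM at Zt +16 (-1.46), and *Kcnj10*, with 6.54 and 2.03 FPKM (-1.32). *Kcnma1* had 4.33 and 1.25 FPKM (-1.24) and *Kcnq3* 2.84 and 0.834 FPKM (-1.07). Of the 4 astrocyte markers, 3 were lower at Zt +16 in WT as well. The choroid plexus marker *Ttr* moved with time too, from 200 FPKM at Zt +6 to 24.9 FPKM at Zt +16 in WT (-2.95) and from 182 to 29.6 FPKM in *Snord116del* (-2.58). The other choroid plexus markers, *Folr1* and *Kl*, averaged under 1 FPKM and were also listed lower at Zt +16 in both genotypes (-0.67 and -0.60 in WT, -0.45 and -0.64 in *Snord116del*). The part of such a difference in tissue between the time groups in the time comparisons was not tested. The 1 higher member was *Kcna5*, with 1.79 and 4.08 FPKM (0.87).

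In *Snord116del*, 29 members were lower at Zt +16 and 11 higher (52.7% and 20.0%), against 39.1% and 25.0% of all genes. Among the 29, *Kcnh5*, *Kcnip2*, *Kcnj2*, *Kcnj13*, *Kcnk9*, *Kcnk12* and *Kcnt2* were kept only through the *Snord116del* Zt +6 group, which favours a fall. The median log2 difference was -0.72 over the members and -0.24 over all genes. With every group set to the same total FPKM the counts became 43 and 3. *Kcnj10* fell from 29.4 FPKM to 2.62 FPKM (-3.07), *Kcnma1* from 19.2 to 1.48 FPKM (-3.02), *Kcnq3* from 15.2 to 0.997 FPKM (-3.02) and *Kcnj3* from 22.1 to 2.42 FPKM (-2.76). The largest rises were those of *Kcne1l*, from 0.752 to 5.88 FPKM (1.97), *Kcnmb4*, from 21.3 to 74.8 FPKM (1.76), *Kcna5*, from 0.862 to 4.03 FPKM (1.43), and *Kcnj4*, from 9.72 to 25.5 FPKM (1.31). All 15 members that were lower at Zt +16 in WT were also lower in *Snord116del*. By the rule, 14 more were lower in *Snord116del* only. Of these 14, *Kcnj2*, *Kcnj13*, *Kcnk9* and *Kcnk12* were kept only through the *Snord116del* Zt +6 group. The comparisons between genotypes and those between times share groups, so that a value of the *Snord116del* Zt +6 group enters both its genotype and its time difference. Length moved with the time difference too: over the 55 members Spearman's rho was -0.39 in WT and -0.45 in *Snord116del*, and over all genes -0.49 and -0.62.

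Partners and scaffolds of potassium channels were followed with 4 HCN channel, 6 sodium potassium pump and 4 chloride cotransporter genes, as a list of 35. Of these, 28 averaged 1 FPKM or more. At Zt +6, 25 of the 28 were higher in *Snord116del* and 1 was lower, with a median log2 difference of 1.26, where 49.3% of all genes were higher and 7.62% lower with a median of 0.57. With equal medians 12 were higher and 1 was lower, with a median of 0.51, where 14.8% of all genes were higher and 24.2% lower. At Zt +16, 2 were higher, against 19.0% of all genes. The length trend was not removed for this list, and over all genes of 5000 bases or more the median at Zt +6 was 1.14. The largest rises were those of *Ank2*, an ankyrin that anchors membrane proteins, with 14.7 and 55.8 FPKM (1.85), and *Adam22*, the receptor for LGI proteins beside Kv1 channels, with 5.53 and 22.0 FPKM (1.82); with equal medians their differences were 1.05 and 1.06. *Dpp6* and *Dpp10*, the auxiliary subunits that speed Kv4 channels, differed by 1.46 and 1.52 (0.70 and 0.79 with equal medians).

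ChIRP-seq asks where on the chromatin the RNA *116HG*, the spliced host transcript of the *Snord116* snoRNAs, is found. Biotinylated oligos complementary to *116HG* pulled it from cross-linked adult brain together with DNA. Peak lists were available for 2 libraries of WT brain (replicates 1 and 2) and for 3 controls of 1 library each, namely non-specific control (NSC) oligos on WT brain, *116HG* oligos on *Snord116del* brain, and NSC oligos on *Snord116del* brain. Positions are those of mm9, and a peak was assigned to a gene when it lay in the gene or within 2 kb of it. The 2 WT *116HG* lists differ in size, with 78033 and 11145 peaks.

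Of the 94 members in the annotation, 67 had a replicate 1 peak and 16 a replicate 2 peak, against 59.3% and 13.9% of all 21853 annotated genes. The controls had a peak at 2 members (WT NSC), 4 (*Snord116del* *116HG*) and 15 (*Snord116del* NSC), against 2.30%, 2.26% and 7.88% of all genes. A replicate 1 peak within 10 kb of a replicate 2 peak was called replicated, and 10 of the 94 members had at least 1, against 10.9% of all genes, a share close to the background. These were *Kcnc2*, *Kcnip1*, *Kcnip2*, *Kcnj4*, *Kcnj5*, *Kcnma1*, *Kcnmb2*, *Kcnmb4*, *Kcnq5* and *Kcns3*. When a peak had to overlap directly between the replicates, 5 members remained.

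The replicate 1 peaks at the potassium channel genes lay mostly in exons and followed the transcript level. Of 642 such peaks, 397 (61.8%) had their middle in an annotated exon, 191 in an intron and 54 outside the gene. In replicate 2, 1 of 19 peaks lay in an exon and 18 in an intron. *Kcnip4* had the most replicate 1 peaks, 68, and *Kcnma1* and *Kcnh7* had 43 each. Spearman's rho between the number of exonic replicate 1 peaks and the WT FPKM at Zt +6 was 0.81 over the 94 members, and between the number of all replicate 1 peaks and gene length 0.50. The members with a replicate 1 peak had a median of 2.50 FPKM in WT at Zt +6 and the 27 without one a median of 0.232 FPKM. These are descriptions across genes of 1 library, and whether RNA contributed to the peaks was not tested. In *Kcnma1*, the replicate 1 peak at chr14:24347565-24347750 covers the exon stretch that holds the selectivity filter codons shown above.

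**Figure D4:**
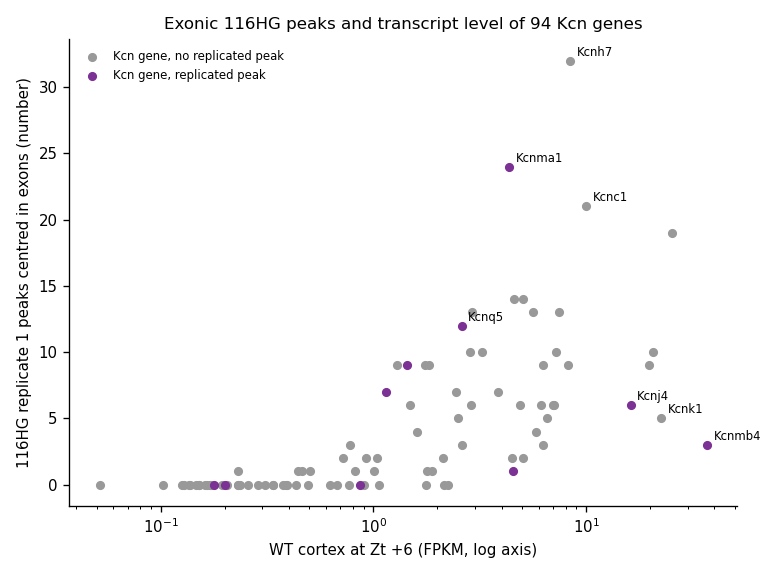
Number of *116HG* replicate 1 peaks with their middle in an exon (y axis) against the WT level at Zt +6 in FPKM (x axis, log) for the 94 annotated Kcn genes; genes with a replicated peak are purple. Genes under 1 FPKM mostly have 0 such peaks, and *Kcnh7*, *Kcnma1* and *Kcnc1* have the most.

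At 5 members a replicate 1 peak overlapped a replicate 2 peak directly, at 6 places in all, each in an intron. The bases shared by both peaks are shown because they are the only places at these genes where the replicates met; they are on the plus strand of mm9, and runs of 15 or more A or of 15 or more T are in capitals.
Kcnc2, chr10:111870545-111870600: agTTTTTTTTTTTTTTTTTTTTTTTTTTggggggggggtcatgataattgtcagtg
Kcnj5, chr9:32137783-32137844: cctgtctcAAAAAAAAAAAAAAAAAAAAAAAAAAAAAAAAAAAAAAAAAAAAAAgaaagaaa
Kcnma1, chr14:24235923-24235975: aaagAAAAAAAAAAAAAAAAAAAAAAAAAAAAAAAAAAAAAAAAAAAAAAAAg
Kcnma1, chr14:24343993-24344045: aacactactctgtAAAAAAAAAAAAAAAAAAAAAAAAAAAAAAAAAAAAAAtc
Kcnq5, chr1:21399477-21399553: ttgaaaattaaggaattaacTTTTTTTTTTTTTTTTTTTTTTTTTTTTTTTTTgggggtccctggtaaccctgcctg
Kcnip1, chr11:33654856-33655102: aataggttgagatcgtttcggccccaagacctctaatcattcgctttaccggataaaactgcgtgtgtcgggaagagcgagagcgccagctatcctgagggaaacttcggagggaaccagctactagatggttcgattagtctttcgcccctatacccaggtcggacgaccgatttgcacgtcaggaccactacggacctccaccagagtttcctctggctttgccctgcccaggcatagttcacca
In 5 of the 6 places the shared bases held a run of A or T, of 26 of the 56 bases in *Kcnc2*, 46 of 62 in *Kcnj5*, 48 of 53 and 38 of 53 in *Kcnma1* and 33 of 77 in *Kcnq5*. The sequence of the place in *Kcnip1* looked like a repeated one and was not identified. Whether its reads came from other copies was not tested. This place had no run over 4 bases. It was also the only replicated peak at a potassium channel gene that overlapped a control peak, with a fold over input of 25.2 for *116HG* oligos and 26.3 for NSC oligos on *Snord116del* brain, where the deleted RNA is not made from the paternal allele, against 354 in WT replicate 1.

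The same runs were common wherever in the genome the replicates met. A run of at least 15 A or T, a length chosen after these sequences were seen, was present in 11.0% of all replicate 1 peaks and in 38.3% of all replicate 2 peaks, and in 87.5% of the 1869 replicate 1 peaks that overlapped a replicate 2 peak. In the controls the share was 6.99% (WT NSC), 0.944% (*Snord116del* *116HG*) and 1.18% (*Snord116del* NSC). At the potassium channel genes 38 of the 642 replicate 1 peaks (5.92%) and 10 of the 19 replicate 2 peaks (52.6%) held one. Peaks also differed in length, with a median of 158 bases in replicate 1, 98 in replicate 2 and 80 among the overlapping ones, and in the *Snord116del* controls of 362 and 393 bases. The part of such runs in the peak calls was not tested.

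**Figure D5:**
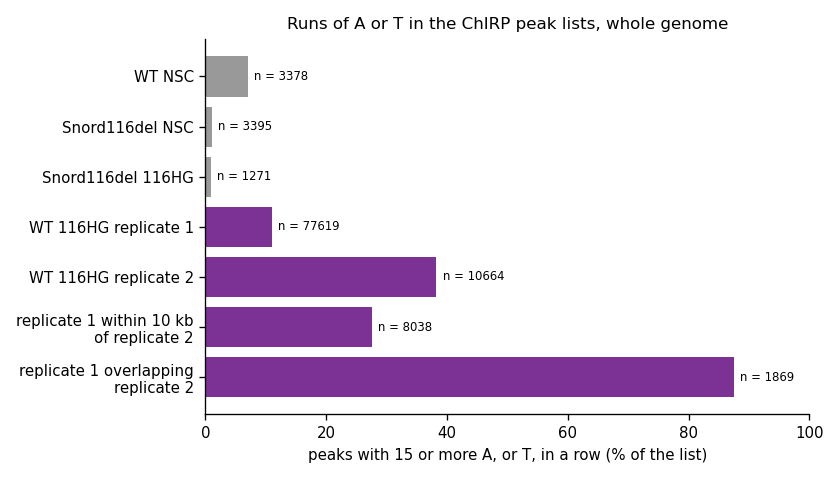
Share of peaks (x axis, % of each list) that hold at least 15 A, or 15 T, in a row, for the 3 control lists (grey) and the WT *116HG* lists (purple), over the whole genome. The share is 87.5% where replicate 1 peaks overlap replicate 2 peaks and 11.0% over all replicate 1 peaks.

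The remaining replicated peaks met a replicate 2 peak only within 10 kb. At *Kcnj4*, 4 replicate 1 peaks lay past the annotated end of the gene, and the nearest replicate 2 peak was 8452 bases or more away. *Kcnmb4* had 1 exonic replicate 1 peak, 2741 bases from a replicate 2 peak that held a run of 22, and *Kcns3* 1 intronic peak, 7778 bases away. *Kcnq5* had 9 replicated peaks, of which 6 lay in exons. Of the 10 members with a replicated peak, *Kcnma1*, *Kcnq5*, *Kcnc2* and *Kcnip2* were among those higher in *Snord116del* at Zt +6, *Kcnj4* and *Kcnmb4* were the lower ones, *Kcnip1* had 4.54 and 4.58 FPKM, and *Kcnj5*, *Kcnmb2* and *Kcns3* had a mean under 1 FPKM.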

How the data were processed

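Cortex RNA-seq of 4 groups of mice and 5 brain ChIRP-seq peak lists were used. Cortex reads were aligned to mm9 by the authors with TopHat2 (2.0.5 in the submitters' processing notes), who deposited 1 Cuffdiff (2.0.2) FPKM value per gene and group. The same table holds the authors' log2 fold changes and q-values, which were not used. For ChIRP-seq the authors aligned reads with Bowtie2 (2.0.0), called peaks in each library with MACS (1.4.2) and deposited positions with, for all lists but that of replicate 2, a fold over input, which is a ratio. Reads per group value or per peak are not in the files, so their precision is unknown.

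Members were the genes whose symbol starts with Kcn. Log2 ratios used a pseudocount of 1 FPKM, a mean of at least 1 FPKM over the 4 groups and a fold of 1.5 with at least 1 FPKM in the higher group; a planned fit over mice was not possible with group values. The length trend was a running median over 20 classes of the longest GENCODE vM1 transcript (NCBIM37, the assembly of mm9), matched by symbol for 98.7% of the genes past the filter and 94 of 95 members; *Kcnb2* and *Kcnh8* occur more than once there and the longest gene was used. Sequences were read from the same assembly, and the coding letters from its transcripts. Protein sequences were not used here.

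Genes named are those with the highest mean per family (2 each), the largest changes past the rule (12 and 8 at Zt +6, 6 and 4 at Zt +16, 4 and 4 between times), those changed in opposite directions at the 2 times, those with a replicated peak, non-coding ones, and the 4 largest rises and falls among partner genes; the others were chosen after their values were seen. Some genes and sequences that this rule takes in are not reported here, though all members enter the counts. Members, lists and the families were chosen with earlier results of these data known. The labels of 1 WT and both *Snord116del* mice at Zt +6 name an earlier version of the table than those of the other 6 mice; whether this marks a batch is not stated, and group values do not allow a check. Python 3.11.15 was used with pandas 2.3.3, numpy 2.4.6, matplotlib 3.10.9 and scipy 1.17.1, and the fold rule was tested on simulated data. Alternatives covered the pseudocount, the filter, the scale, the fold, transcript length, and the distances and lists of peaks.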

Additional observations from a re-analysis of the deposited data

Results flagged for a closer look

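*Kcnj4* and *Kcne1l* stood out because their genotype differences had opposite directions at the 2 times. For *Kcnj4* the log2 difference between *Snord116del* and WT was -0.68 at Zt +6 and 0.61 at Zt +16, so that the first was lower by 1.29 than the second (-1.29). For *Kcne1l* the values were -0.89 and 0.76, a difference of -1.64. With equal medians the Zt +16 values fell under the 1.5-fold rule, at 0.17 for *Kcnj4* and 0.39 for *Kcne1l*, and with the length trend removed they were 0.20 and 0.28. With 1 value per group the difference between the times was not tested. *Kcnmb4* had the same signs, -0.76 and 0.54, but its second value did not reach 1.5-fold.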

How the results depend on the processing

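No paired analysis was possible because the table holds 1 value per group. With equal medians in all groups, higher and lower Kcn genes in *Snord116del* numbered 21 and 9 at Zt +6 (39 and 3 as deposited), and 0 were higher at Zt +16 (12 as deposited); in WT 3 were higher at Zt +16 than at Zt +6 (1 as deposited). With the length trend removed the counts were 15 and 8 at Zt +6 and 0 higher at Zt +16, 2 were higher at Zt +16 in WT, and 18 were lower at Zt +16 in *Snord116del* (29 as deposited). With equal totals 0 were higher in *Snord116del* at Zt +16 and the median member difference there became -0.0869 (0.34 as deposited), in WT 0 were higher and 29 lower at Zt +16 (15 lower as deposited), and in *Snord116del* 3 were higher (11 as deposited). A 2-fold limit left 0 lower at Zt +6, 0 higher at Zt +16, 0 higher and 6 lower at Zt +16 in WT and 6 higher at Zt +16 in *Snord116del*. A pseudocount of 0.1 gave 20 higher at Zt +16 and 3 higher at Zt +16 in WT. The other counts of these comparisons were within 1.5 times. The 10 genes with a replicated *116HG* peak became 5 with direct overlap, 5 within 2 kb, 26 within 50 kb and 6 in the upper quartile of replicate 1 fold, and lay between 16 and 67 when either replicate was left out. Of 170 values of the named changes under these settings, 149 stayed past the rule in the same direction. A further 21 fell under it (18 of them at Zt +16 between genotypes) and 0 reversed. Leaving out the filter cannot alter a gene's own value, so all 34 named changes stayed past the rule there by construction. The named changes were also picked as the largest ones, so this tally does not describe the other members. Other than by the settings' own construction, the causes were not tested.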
